A study of Homo sapiens with 8 samples.

Results

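MSP3, one of 3 mesenchymal subpopulations of the human mammary epithelial line HMLE, was set against HMLE cells sorted for high surface CD24 (CD24hi), to ask what MSP3 gained, lost or kept of the epithelial program. HMLE is an established line of immortalized mammary epithelial cells, and both groups were grown in MEGM, a mammary epithelial medium. The comparison holds 4 of the 8 arrays of the series, chosen by their titles: MSP3 array a, MSP3 array b, CD24hi array a and CD24hi array b. The other 4 arrays, 2 of MSP1 and 2 of MSP2, are labelled as mesenchymal subpopulations too, and here they add to the estimate of spread and give a test of what sets MSP3 apart from them. The sources used here do not say how MSP3 was isolated, whether it is 1 clone, or whether the a and b arrays are from separate cultures. P-values therefore measure only the spread between arrays, which may be technical.

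Epithelial cells hold to each other through adherens junctions built on E-cadherin, through desmosomes anchored to keratin filaments, and through tight and gap junctions. Basal mammary cells carry KRT5 and KRT14 and attach by hemidesmosomes to laminin-332, and luminal cells carry KRT8 and KRT18. In the epithelial-mesenchymal transition, factors such as ZEB1, ZEB2 and TWIST1 are known to repress genes of cell-cell adhesion, and cells take on a matrix rich in fibrillar collagen and fibronectin.

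A signal is the deposited brightness of a probe set in linear units, and a level is the geometric mean signal of the 2 arrays of a group. A change is the log2 level of MSP3 minus that of CD24hi, given ± SE of the limma fit with n = 2 arrays per group, and it was called at an adjusted p under 0.05 over all 54613 probe sets. Each gene was represented by its brightest named probe set. Levels under 32 signal units were treated as dim, since arrays of a group spread most there, and where only the lower group was dim the fold is a bound against 32, written "at least". Genes called lower were split by whether the MSP3 level was dim. A gene was called kept when it was not called, both levels were at or above 32 and the 95% interval of its change lay wholly within -1 and 1. Signals of different probe sets are not comparable with each other.

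The 2% trimmed mean was 150 on every array, and between 57.6% and 60.3% of probe sets were dim. The CD24hi arrays stood apart from each other. Among 15753 bright probe sets, 7.51% had over 2-fold unlike signals on the MSP3 pair and 24.9% on the CD24hi pair. For ACTB the 3′ over 5′ signal, a sign of RNA quality, was 1.10 to 1.25 on all arrays except CD24hi a, where it was 1.47. How the counts over the whole epithelial and mesenchymal programs changed without single arrays is therefore also described. The same was done for single lists without each CD24hi array, where counts moved over 1.5 times. Without either MSP3 array, 0 genes of any of these lists were called. CD24 was the sort marker of CD24hi and is no finding. Its signals of 89.4 and 95.8 in MSP3, against 7072 and 3443 in CD24hi, only check the labels. Of 7 endothelial, 5 leukocyte and 10 smooth muscle or pericyte markers measured, 0 were called in either direction, beside 1.57% of all probe sets. The leukocyte levels were all dim in MSP3, with summed signals of 60 and 66 in MSP3 and 104 and 68 in CD24hi. In these bulk samples, fewer cells of a type and less RNA per cell cannot be told apart.

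Genes of the epithelial program were lower in MSP3 across all 10 lists. Of 108 measured genes of these lists, 50 fell, 0 rose, 1 was kept and 57 were neither called nor kept. Over all 8927 named genes 2.62% fell, and over all 54613 probe sets 0.787% did. The median change was -3.81 over the 108 genes, -0.02 over all named genes and 0.03 over all probe sets. Both MSP3 arrays lay below both CD24hi arrays for 99 of the 108 genes, against 25% of named genes. Of the 108 genes, 49 were named only through probe sets that the authors had themselves called. The lists were also chosen with earlier results of these data known. The count of genes that fell, the median, the count of 99 and the like counts of single lists may therefore partly reflect selection. They describe these genes only. Of the 108 genes, 52 stood at or above 32 signal units in MSP3 and 98 did in CD24hi. Their summed signal was 39309 on MSP3 a and 35960 on MSP3 b, against 255752 on CD24hi a and 158967 on CD24hi b.

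Among the 50 genes that fell, 29 had a dim level in MSP3 and 21 kept a level at or above 32. The count rests on few arrays: 26 genes fell without CD24hi a, 24 without CD24hi b, 32 without 1 MSP1 array and 37 without 1 MSP2 array. No call was left without MSP3 a or without MSP3 b, where the median change over the epithelial genes was -3.93 and -3.73. The naming table opens with probe sets the authors had called and then covers only an early stretch of the array without gaps, so genes named here lean towards their calls. Among the 50 epithelial genes whose probe set lay in that gapless stretch, 20 fell, against 0.981% of 7849 genes there. The stretch bears on the naming alone, and the choice of the lists may have raised this count too.

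**Figure D1:**
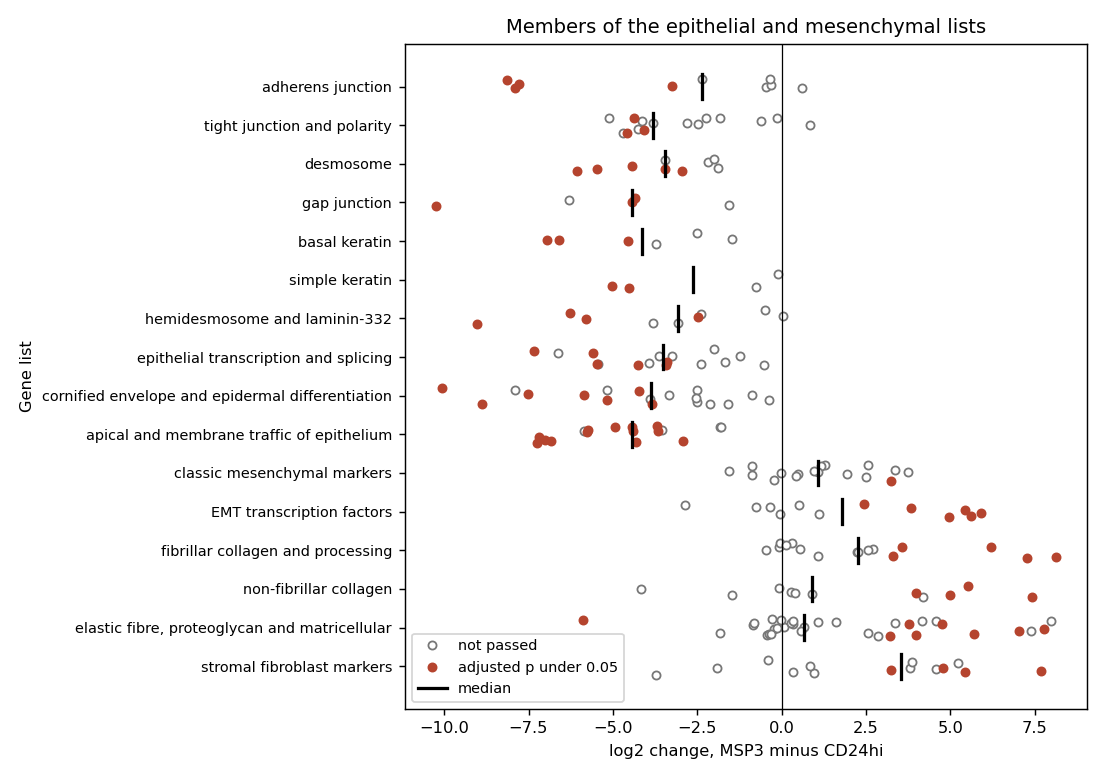
Log2 change of MSP3 minus CD24hi for every measured member of the 10 epithelial and 6 mesenchymal lists. Filled points passed limma's adjusted p under 0.05, open points did not, and the black bars mark list medians. The medians of all 10 epithelial lists lie below 0 and those of all 6 mesenchymal lists lie above 0.

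With dim levels set to 32, the cadherins and EPCAM gave the widest falls among junction genes. CDH1, which encodes E-cadherin, had signals of 10.1 and 23.7 in MSP3 against 6382 and 2950 in CD24hi, at least 136-fold lower (change -8.13 ± 1.06, adjusted p = 0.0267). CDH3, the P-cadherin gene of basal cells, had 8.62 and 13.2 in MSP3 against 3242 and 1665 in CD24hi, at least 72.6-fold lower (-7.77 ± 0.91, adjusted p = 0.0202). EPCAM, an epithelial adhesion molecule, had 10.7 and 23.5 in MSP3 against 5353 and 2628 in CD24hi, at least 117-fold lower (-7.89 ± 0.59, adjusted p = 0.00853). All 3 were dim on both MSP3 arrays and bright on both CD24hi arrays. EPCAM was called also without either CD24hi array, while CDH1 and CDH3 were not: CDH1 had an adjusted p of 0.0971 without CD24hi a and 0.0879 without CD24hi b. In the authors' deposited table the log2 change of CDH1 was -8.07 and that of EPCAM -7.61.

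The catenins, which link cadherins to actin, did not pass the test except for JUP. JUP, plakoglobin of both adherens junctions and desmosomes, fell to 284 and 158 in MSP3 against 2228 and 1858 in CD24hi, 9.61-fold lower (-3.26 ± 0.43, adjusted p = 0.0287). CTNNB1, beta-catenin, had signals of 975 and 1116 in MSP3 against 1269 and 1602 in CD24hi, with a change of -0.45 and a 95% interval of -1.25 to 0.35. CTNNA1, alpha-catenin, had 3127 and 3250 in MSP3 against 2189 and 2025 in CD24hi, with a change of 0.60 and an interval of -0.16 to 1.36. It was the epithelial gene whose MSP3 arrays both lay above both CD24hi arrays. In all, 4 of 9 adherens junction genes fell, with 1 called without CD24hi a and 1 without CD24hi b.

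Of 9 desmosome genes 5 fell (3 without CD24hi b), and the MSP3 arrays lay below the CD24hi arrays for all 9. DSC2, a desmosomal cadherin, had signals of 19.8 and 29.9 in MSP3 against 2829 and 935 in CD24hi, at least 50.8-fold lower (-6.06 ± 0.59, adjusted p = 0.0141). DSG3, another desmosomal cadherin, had 42.0 and 27.9 in MSP3 against 2526 and 917 in CD24hi, 44.4-fold lower (-5.47 ± 0.60, adjusted p = 0.0176). DSC3 fell 21.4-fold and PKP3, a plakophilin of the desmosome plaque, fell 7.80-fold, both with MSP3 levels at or above 32. EVPL, the envoplakin gene, also fell, with dim levels in both groups. DSP, desmoplakin, which ties the plaque to keratins, had 525 and 646 in MSP3 against 8765 and 4664 in CD24hi (-3.46 ± 0.58, adjusted p = 0.0559). DSG2, the desmoglein of simple epithelia, had 526 and 751 in MSP3 against 4061 and 2021 in CD24hi (-2.19 ± 0.50, adjusted p = 0.119). These last 2 genes stayed well above 32 in MSP3 and did not pass the test.

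Of 15 tight junction and polarity genes 3 fell, all to dim levels, and 13 had both MSP3 arrays below both CD24hi arrays. The median change over the list was -3.82. OCLN, occludin, had signals of 29.2 and 23.6 in MSP3 against 1169 and 341 in CD24hi, at least 19.7-fold lower (-4.59 ± 0.62, adjusted p = 0.0297). PATJ, a scaffold of the Crumbs polarity complex, had 12.8 and 15.5 in MSP3 against 400 and 210 in CD24hi, at least 9.06-fold lower (-4.37 ± 0.42, adjusted p = 0.0140). CRB3, the epithelial Crumbs protein, was at least 3.49-fold lower (-4.07 ± 0.57, adjusted p = 0.0329). CLDN1, a claudin, had 40.7 and 35.9 in MSP3 against 1014 and 286 in CD24hi and missed the threshold (-3.82 ± 0.65, adjusted p = 0.0562). TJP1, a ZO scaffold protein that tight junctions share with other contacts, had a change of -0.62 with an interval of -1.58 to 0.33.

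Of 5 gap junction genes 3 fell, with 1 called without CD24hi a. GJB6, a connexin of stratified epithelium, had signals of 0.811 and 0.29 in MSP3 against 1088 and 320 in CD24hi, at least 18.4-fold lower (-10.25 ± 1.09, adjusted p = 0.0162). GJB2 fell to 143 and 167 in MSP3 against 5684 and 1927 in CD24hi, 21.4-fold lower. GJA1, the widely expressed connexin 43, had 1484 and 1573 in MSP3 against 6645 and 3028 in CD24hi and did not pass the test (-1.55 ± 0.45, adjusted p = 0.200).

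Promoters of 5 junction genes that fell are shown because ZEB and SNAI factors are known to bind E-boxes of the letters CACCTG, and ZEB1 and ZEB2 rose in MSP3 (values given with the mesenchymal genes). No SNAI gene was among the transition-linked factors measured here. CDH1, CDH3 and EPCAM, the widest falls among junction genes, had no promoter entry and are not shown. Each is the 250 bases before the gene start in RefSeq, build GRCh38.p14, 5′ to 3′ on the gene's strand, with CACCTG or its reverse complement CAGGTG in capitals. JUP lies at chr17:41786712-41786961 on the minus strand and DSC2 at chr18:31102422-31102671 on the minus strand. DSG3 lies at chr18:31447491-31447740 on the plus strand, OCLN at chr5:69492297-69492546 on the plus strand and PATJ at chr1:61742230-61742479 on the plus strand.
JUP: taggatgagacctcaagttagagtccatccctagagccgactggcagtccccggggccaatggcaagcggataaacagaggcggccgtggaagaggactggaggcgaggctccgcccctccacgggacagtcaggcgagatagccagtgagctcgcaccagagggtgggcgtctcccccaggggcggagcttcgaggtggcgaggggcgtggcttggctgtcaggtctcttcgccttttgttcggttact
DSC2: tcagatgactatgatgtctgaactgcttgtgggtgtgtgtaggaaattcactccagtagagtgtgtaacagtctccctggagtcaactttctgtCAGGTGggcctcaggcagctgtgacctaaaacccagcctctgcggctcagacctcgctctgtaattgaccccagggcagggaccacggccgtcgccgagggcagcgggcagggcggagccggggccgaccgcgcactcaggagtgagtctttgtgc
DSG3: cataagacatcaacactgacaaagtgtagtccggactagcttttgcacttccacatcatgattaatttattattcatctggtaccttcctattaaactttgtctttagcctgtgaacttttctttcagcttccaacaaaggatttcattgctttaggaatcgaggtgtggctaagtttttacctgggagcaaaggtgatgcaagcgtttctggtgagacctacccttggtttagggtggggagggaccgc
OCLN: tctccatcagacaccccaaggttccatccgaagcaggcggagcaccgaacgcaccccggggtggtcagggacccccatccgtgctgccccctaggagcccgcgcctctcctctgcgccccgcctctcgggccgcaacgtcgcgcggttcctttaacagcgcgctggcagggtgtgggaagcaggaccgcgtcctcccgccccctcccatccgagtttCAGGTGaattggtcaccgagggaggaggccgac
PATJ: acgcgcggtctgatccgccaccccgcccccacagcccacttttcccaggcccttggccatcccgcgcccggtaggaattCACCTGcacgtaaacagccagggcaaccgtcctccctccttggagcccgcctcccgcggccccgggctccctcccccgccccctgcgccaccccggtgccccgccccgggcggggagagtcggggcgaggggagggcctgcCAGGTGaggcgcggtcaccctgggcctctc

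The motif stood once in the DSC2 window, starting at -156 from the gene start, once in the OCLN window, at -33, and at -171 and -30 in the PATJ window. The JUP and DSG3 windows held no match to these letters. Of the 50 epithelial genes that fell, 29 had a promoter in the RefSeq table, and 17 of the 29 windows (58.6%) held the motif on either strand. It was in 29 of 63 windows (46%) of all epithelial genes measured and in 44 of 125 windows (35.2%) of genes that fell outside the epithelial lists. It was in 16.4% of 3605 windows of named genes at or above 32 signal units in CD24hi, and in 17.5% of all 27305 windows of the table. The sets were not matched for base composition, and a match describes the letters alone.

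**Figure D2:**
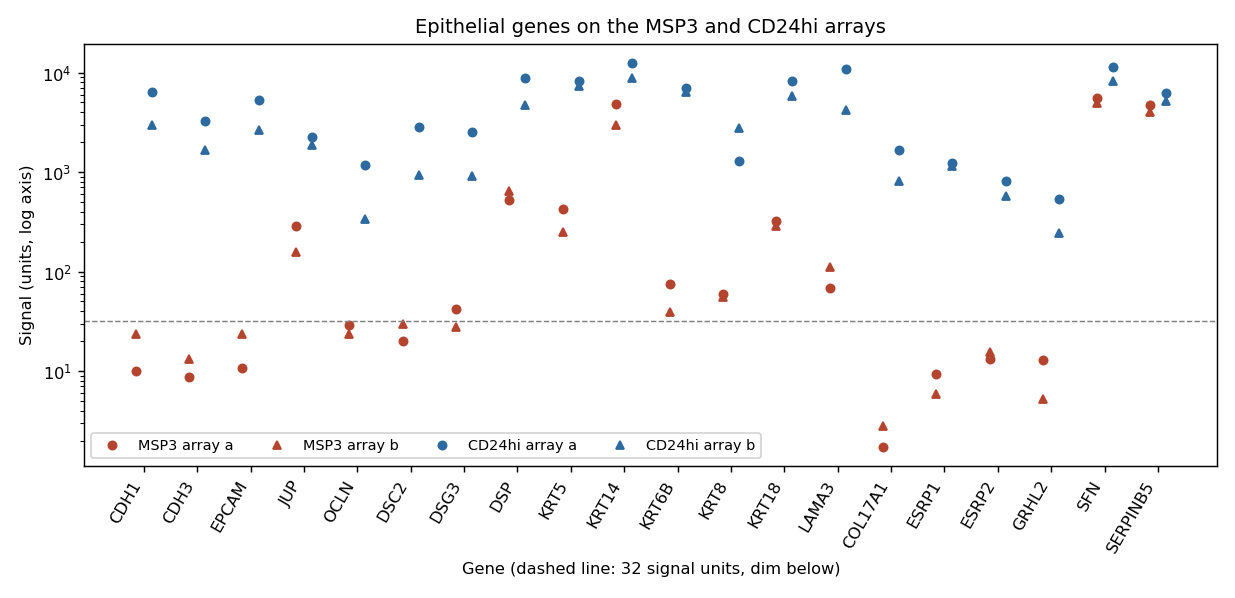
Signal (log axis) of 20 epithelial genes on each MSP3 array and, to the right, each CD24hi array. The dashed line marks 32 signal units. CDH1, CDH3, EPCAM, COL17A1, ESRP1, ESRP2 and GRHL2 lie below it on both MSP3 arrays, while KRT14, SFN and SERPINB5 stay far above it there.

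Some keratins fell and others did not pass the test. KRT5, a basal keratin, had signals of 423 and 252 in MSP3 against 8243 and 7244 in CD24hi, 23.7-fold lower (-4.56 ± 0.48, adjusted p = 0.0158). Its usual partner KRT14 had 4831 and 2955 in MSP3 against 12425 and 8835 in CD24hi and did not pass the test (-1.47 ± 0.43, adjusted p = 0.204). KRT6B, a keratin of activated keratinocytes, had 75.7 and 38.9 in MSP3 against 6923 and 6394 in CD24hi, 123-fold lower (-6.94 ± 0.43, adjusted p = 0.00776). KRT15, another basal keratin, fell to 17.9 and 10.1 in MSP3 against 1807 and 951 in CD24hi, at least 41.0-fold lower (-6.61 ± 0.54, adjusted p = 0.00922). KRT17 had 2085 and 718 in MSP3 against 6639 and 7357 in CD24hi (-2.51 ± 0.81, adjusted p = 0.249), so the MSP3 arrays themselves lay far apart for it. The MSP3 levels of KRT5 and KRT14 stood at 4.23% and 36.1% of their CD24hi levels. In all, 3 of 6 basal keratin genes fell, and over the list the MSP3 a signals exceeded those of MSP3 b by a median of 0.79 on the log2 scale.

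The paired keratins of simple epithelium, KRT8 and KRT18, both fell. KRT8 had signals of 59.2 and 54.9 in MSP3 against 1282 and 2748 in CD24hi, 32.9-fold lower (-5.04 ± 0.44, adjusted p = 0.0107). KRT18 had 321 and 287 in MSP3 against 8196 and 5802 in CD24hi, 22.7-fold lower (-4.51 ± 0.35, adjusted p = 0.00866). Both stayed above 32 on each MSP3 array and were called also without either CD24hi array. KRT7, another simple keratin, was the 1 epithelial gene that met the rule for kept, beside 5.35% of named genes and 4.17% of all probe sets. It had 101 and 79.3 in MSP3 against 98.6 and 95.4 in CD24hi, a change of -0.11 with an interval of -0.94 to 0.72. The 3 probe sets of KRT7 disagreed, with changes from -2.69 to 2.44, none called. KRT19 was dim on all 4 arrays.

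Of the 9 genes of hemidesmosomes and laminin-332 that anchor basal cells, 4 fell, with 2 called without CD24hi a and 2 without CD24hi b. COL17A1, the hemidesmosomal collagen, had signals of 1.74 and 2.79 in MSP3 against 1655 and 813 in CD24hi, at least 36.2-fold lower (-9.04 ± 0.50, adjusted p = 0.00776). LAMA3, the alpha chain of laminin-332, had 68.1 and 110 in MSP3 against 10788 and 4160 in CD24hi, 77.5-fold lower (-6.28 ± 0.60, adjusted p = 0.0134), on the only 1 of its 4 probe sets that was called. LAMB3, the beta chain, had 327 and 726 in MSP3 against 9860 and 4681 in CD24hi and missed the threshold (-3.80 ± 0.88, adjusted p = 0.125). DST, the dystonin gene, fell 5.53-fold on its brightest probe set, and its 7 probe sets ran from -2.47 to 4.68.

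The integrin pair of the hemidesmosome was not called. ITGA6 had 406 and 998 in MSP3 against 7568 and 3713 in CD24hi (-3.06 ± 0.85, adjusted p = 0.184). ITGB4 had 704 and 306 in MSP3 against 3451 and 1684 in CD24hi (-2.38 ± 0.61, adjusted p = 0.155). Both genes were lower on both MSP3 arrays than on both CD24hi arrays, and the 2 MSP3 arrays differed over 2-fold. CD151, a tetraspanin partner of laminin-binding integrins, had 1183 and 1172 in MSP3 against 1604 and 814 in CD24hi, a change of 0.04 with an interval of -0.98 to 1.06. PLEC, plectin, had a change of -0.48 with a wide interval of -2.61 to 1.64.

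**Figure D3:**
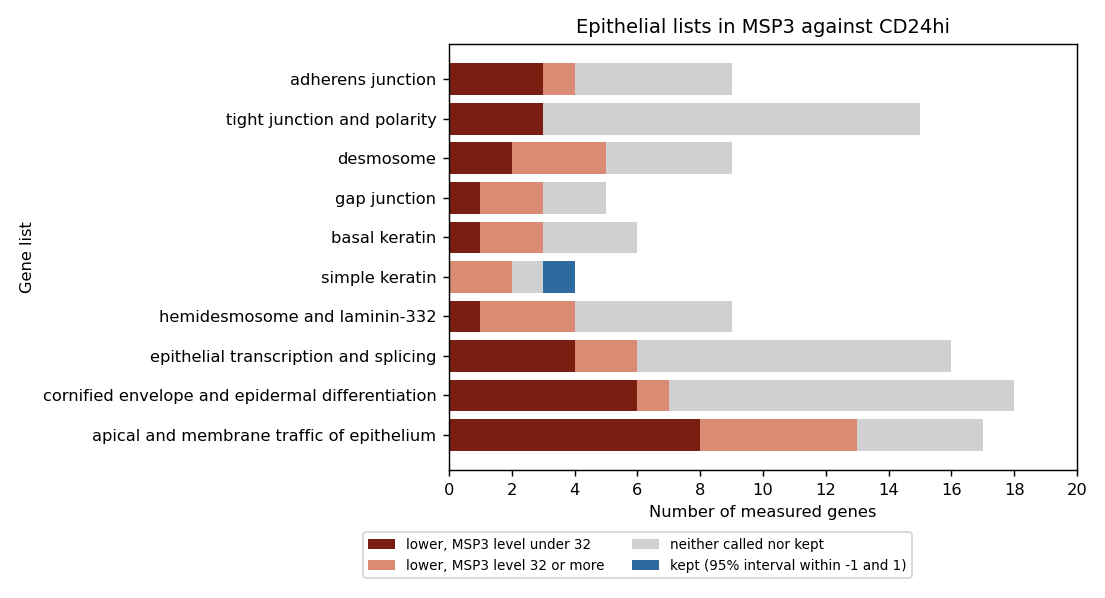
Number of measured genes in each epithelial list that were called lower in MSP3 with a dim MSP3 level, called lower with an MSP3 level at or above 32, neither called nor kept, or kept. The apical and membrane traffic list had 13 of 17 genes called lower, and the tight junction list 3 of 15.

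Of 16 genes of epithelial transcription and splicing, 6 fell and 15 had both MSP3 arrays below both CD24hi arrays. Calls were fewer without CD24hi a, and no call was left without CD24hi b. ESRP1, the epithelial splicing regulator, had signals of 9.39 and 5.88 in MSP3 against 1224 and 1162 in CD24hi, at least 37.3-fold lower (-7.33 ± 0.65, adjusted p = 0.0116). Its paralogue ESRP2 had 13.1 and 15.7 in MSP3 against 819 and 573 in CD24hi, at least 21.4-fold lower (-5.58 ± 0.57, adjusted p = 0.0154). GRHL2, a grainyhead factor that activates CDH1, had 12.9 and 5.28 in MSP3 against 535 and 246 in CD24hi, at least 11.3-fold lower (-5.46 ± 0.67, adjusted p = 0.0231). TFCP2L1 and ELF3 also fell, ELF3 with dim levels in both groups.

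TP63, the master factor of basal epithelium, had 11.8 and 15 in MSP3 against 1222 and 1406 in CD24hi and just missed the threshold (-6.62 ± 1.13, adjusted p = 0.0571). It was dim on both MSP3 arrays, and 1 of its 5 probe sets was called. Other factors stayed above 32 in MSP3. TFAP2A, an AP-2 factor, had 832 and 727 in MSP3 against 1682 and 2014 in CD24hi (-1.24 ± 0.34, adjusted p = 0.182). KLF5 had 111 and 156 in MSP3 against 518 and 345 in CD24hi (-1.69 ± 0.39, adjusted p = 0.121). Neither was called.

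The list of apical and membrane traffic genes had the most calls, 13 of 17, of which CD24 itself was 1. Without CD24hi a the count was 6 and without CD24hi b it was 7. TMEM30B, a flippase subunit, had signals of 10.2 and 5.97 in MSP3 against 1239 and 625 in CD24hi, at least 27.5-fold lower (-6.82 ± 0.49, adjusted p = 0.00809). SPINT1, a Kunitz inhibitor of epithelial surface proteases, had 4.11 and 8.45 in MSP3 against 1089 and 753 in CD24hi, at least 28.3-fold lower (-7.26 ± 0.99, adjusted p = 0.0306). ST14, matriptase, the membrane protease it inhibits, was at least 18.3-fold lower (-5.76 ± 0.59, adjusted p = 0.0155). RAB25, a GTPase of epithelial recycling, had 6.70 and 2.40 in MSP3 against 408 and 837 in CD24hi, also at least 18.3-fold lower (-7.19 ± 0.90, adjusted p = 0.0241). SPINT2 and MAL2 fell 21.8-fold and 30.7-fold, and both stayed above 32 in MSP3. Without CD24, 49 of the remaining 107 epithelial genes fell.

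Of 18 genes of the cornified envelope and epidermal differentiation, 7 fell, and all 18 had both MSP3 arrays below both CD24hi arrays. Without CD24hi a 3 were called and without CD24hi b 2. KLK10, a kallikrein protease, had signals of 1.52 and 1.54 in MSP3 against 4671 and 577 in CD24hi, at least 51.3-fold lower (-10.07 ± 0.94, adjusted p = 0.0128). SPRR1B, an envelope precursor, had 7.94 and 1.25 in MSP3 against 1555 and 1423 in CD24hi, at least 46.5-fold lower (-8.88 ± 1.07, adjusted p = 0.0216). CSTA, cystatin A, fell 18.8-fold to 283 and 167 in MSP3 against 3782 and 4447 in CD24hi. SERPINB5, maspin, stood apart within this list: it had 4721 and 4056 in MSP3 against 6252 and 5140 in CD24hi, a change of -0.37 with an interval of -1.16 to 0.41. SFN, stratifin, had 5535 and 4899 in MSP3 against 11300 and 8212 in CD24hi, a change of -0.89 with an interval of -1.73 to -0.04 and an adjusted p of 0.342, and 1 of its 3 probe sets was called.

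Epithelial growth factor signalling and S100 genes, kept as lists beside the program, fell in part. Of 16 growth factor genes 5 fell and 0 rose, with 1 called lower without CD24hi a and 0 without CD24hi b. FGFR3 and FGFR2, fibroblast growth factor receptors of epithelium, stood 26.7-fold and at least 8.02-fold below CD24hi, and ERBB3, a receptor of neuregulin, at least 5.0-fold. NRG1, which encodes neuregulin, fell 15.2-fold and JAG2, a Notch ligand, 15.7-fold. EGFR had signals of 1133 and 1998 in MSP3 against 4434 and 1509 in CD24hi, and MET had 1294 and 2446 in MSP3 against 5434 and 1878 in CD24hi. The arrays of the 2 groups overlapped for both receptors. Of 8 S100 genes 2 fell. S100A14 had 31.3 and 22.3 in MSP3 against 2071 and 3564 in CD24hi, at least 84.9-fold lower (-6.68 ± 0.52, adjusted p = 0.00866), and S100A8 was at least 14.8-fold lower. S100A10 and S100A11 had changes of 0.18 and -0.22.

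Among all named genes, the 12 widest falls included FGFBP1, CDH1, KRT6B, EPCAM, S100A14, LAMA3, CDH3, SFRP1, CD24 and ANXA3, ranked with levels under 32 set to 32. FGFBP1, a secreted carrier of fibroblast growth factors, had signals of 38.2 and 69.4 in MSP3 against 10308 and 5808 in CD24hi, 150-fold lower (-7.23 ± 0.68, adjusted p = 0.0128). SFRP1, a secreted Wnt antagonist, had 17.7 and 17.5 in MSP3 against 2426 and 1401 in CD24hi, at least 57.6-fold lower (-6.71 ± 0.44, adjusted p = 0.00776). ANXA3, an annexin, had 46.4 and 90.1 in MSP3 against 4370 and 2679 in CD24hi, 52.9-fold lower (-5.73 ± 0.47, adjusted p = 0.00958).

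Some epithelial genes stayed bright in MSP3. Of the 57 epithelial genes neither called nor kept, 27 had a dim MSP3 level and 30 were at or above 32 in both groups. Of these 30, 20 had a change at or below -1 and 10 lay between -1 and 1. The 10 included CTNNA1, CD151, CTNND1, NECTIN2, SERPINB5, CTNNB1, PLEC, TJP1 and SFN. Of these 10 the interval of SFN alone lay wholly below 0. For none of the 10 did the interval lie wholly within -1 and 1, so none was called kept. The genes below -1 included PERP, a desmosomal membrane protein, with 1773 and 2353 in MSP3 against 9867 and 5831 in CD24hi (-1.89 ± 0.42, adjusted p = 0.110).

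**Figure D4:**
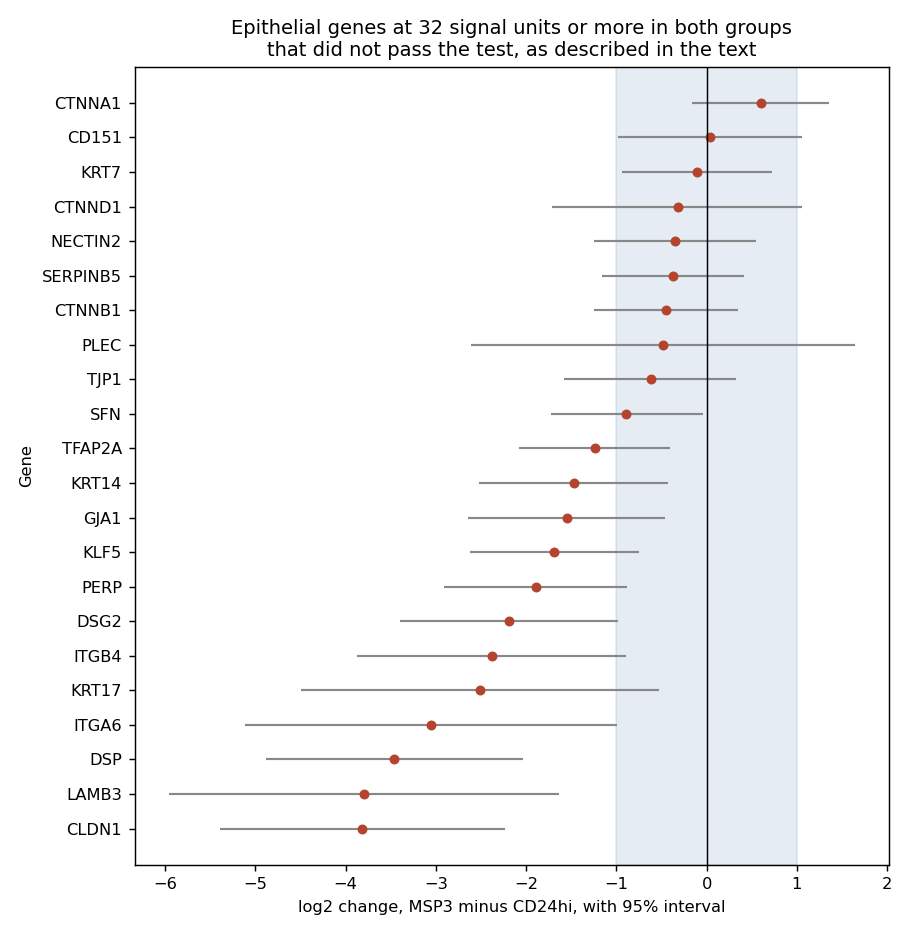
Log2 change of MSP3 minus CD24hi with its 95% interval for 21 epithelial genes described in the text that were at or above 32 signal units in both groups and neither called nor kept, and for KRT7. The shaded band spans -1 to 1. The interval of KRT7 alone lies wholly within it.

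Genes of collagens, elastic fibres and mesenchymal transcription factors rose in MSP3. Of 97 measured genes of 6 mesenchymal lists, 25 rose, 1 fell and 71 were neither called nor kept, while 2.05% of named genes rose. The median change was 1.12, and both MSP3 arrays lay above both CD24hi arrays for 55 of the 97, against 22% of named genes. These lists too were chosen with earlier results of these data known. The median and all counts of these lists, called genes included, may therefore partly reflect selection. Among the 72 of the 97 genes whose probe set lay in the gapless stretch of the naming table, 9 rose, against 0.701% of genes there. Of the 25, 11 had a dim CD24hi level and 14 were at or above 32 there. Some of the 71 had called probe sets other than the brightest one, in either direction. For DCN 4 of 5 were called, with changes from 0.34 to 8.78 over the 5. For PDPN 1 of 3 was called, with changes from -6.09 to -3.73 over the 3. Fewer genes rose without CD24hi b or without any single MSP1 or MSP2 array, and more did without CD24hi a. No call was left without MSP3 a or without MSP3 b. The median change was 1.41 without CD24hi a, 1.66 without CD24hi b, 0.96 without MSP3 a and 1.87 without MSP3 b.

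COL3A1, a fibrillar collagen, had signals of 11367 and 6927 in MSP3 against 26.0 and 38.2 in CD24hi, at least 277-fold higher (8.14 ± 0.46, adjusted p = 0.00776). COL1A2, a chain of type I collagen, had 9429 and 4826 in MSP3 against 75.1 and 111 in CD24hi, 73.9-fold higher (6.21 ± 0.48, adjusted p = 0.00866). PCOLCE, which speeds procollagen processing, was at least 50.6-fold higher (7.26 ± 0.75, adjusted p = 0.0156), and COL5A2 and P4HA3 rose too. COL1A1, the other type I chain, had 6731 and 7318 in MSP3 against 1807 and 628 in CD24hi and was not called on its brightest probe set (2.72 ± 0.53, adjusted p = 0.0829), while 3 of its 5 probe sets were. In all, 5 of 16 genes of fibrillar collagen and its processing rose. Of 11 non-fibrillar collagen genes 4 rose, among them all 3 chains of collagen VI measured. COL6A1 was 32.1-fold, COL6A2 at least 11.5-fold and COL6A3 at least 44.1-fold higher.

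Of 33 genes of elastic fibres, proteoglycans and matricellular proteins, 7 rose and 1 fell, with 4 higher without CD24hi b. FBLN5, an assembly factor of elastic fibres, had signals of 8644 and 7413 in MSP3 against 35.3 and 38.7 in CD24hi, 217-fold higher (7.76 ± 0.31, adjusted p = 0.00526). FBN1, fibrillin, had 5811 and 5408 in MSP3 against 206 and 56.7 in CD24hi, 51.9-fold higher (5.70 ± 0.63, adjusted p = 0.0177). NID1, nidogen of the basement membrane, had 2949 and 2003 in MSP3 against 18.1 and 18.8 in CD24hi, at least 75.9-fold higher (7.04 ± 0.42, adjusted p = 0.00776). MFAP5, a microfibril protein, went the other way, with 13 and 9.51 in MSP3 against 916 and 483 in CD24hi, at least 20.8-fold lower (-5.90 ± 0.45, adjusted p = 0.00862). MGP, a matrix protein that restrains calcification, had 1557 and 51.8 in MSP3 against 1.33 and 2.14 in CD24hi, and with MSP3 arrays so far apart it was not called (adjusted p = 0.224).

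Of 12 genes of transition-linked transcription factors, 6 rose, with 3 called without CD24hi b. ZEB1, a repressor of CDH1, had signals of 354 and 419 in MSP3 against 3.64 and 11.4 in CD24hi, at least 12-fold higher (5.90 ± 0.59, adjusted p = 0.0146). Its paralogue ZEB2 had 110 and 181 in MSP3 against 7.77 and 2.60 in CD24hi, at least 4.40-fold higher (4.97 ± 0.58, adjusted p = 0.0203). TWIST1 had 522 and 704 in MSP3 against 95.7 and 129 in CD24hi, 5.47-fold higher (2.45 ± 0.35, adjusted p = 0.0342). FOXC2 and PRRX1, developmental factors of mesenchyme, were 14.3-fold and 43.1-fold higher. TWIST2 and FOXC1 were not called. FOXQ1 went the other way, with 9.39 and 12.9 in MSP3 against 113 and 55.5 in CD24hi, and missed the threshold (-2.85 ± 0.48, adjusted p = 0.0558). Both MSP3 arrays lay above both CD24hi arrays for 7 of the 12 genes and below them for 2.

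Few textbook mesenchymal markers passed the test, though both MSP3 arrays lay above both CD24hi arrays for 9 of 17 and below them for 3. Of 17, THY1, a surface protein of fibroblasts, was the 1 called higher, with 3285 and 2271 in MSP3 against 239 and 344 in CD24hi, 9.53-fold higher (3.25 ± 0.37, adjusted p = 0.0192), and its adjusted p was 0.0541 without CD24hi a and 0.0507 without CD24hi b. VIM, vimentin, had 11131 and 8277 in MSP3 against 7893 and 5940 in CD24hi, a change of 0.49 with an interval of -0.36 to 1.34. The 2 probe sets of VIM had changes of 0.49 and 2.49, and neither was called. On the brightest VIM probe set the CD24hi arrays were thus bright, as they were for keratins and E-cadherin. FN1, fibronectin, had 6743 and 4895 in MSP3 against 1660 and 580 in CD24hi (2.55 ± 0.55, adjusted p = 0.107), and CDH2, N-cadherin, had 792 and 1114 in MSP3 against 226 and 36.6 in CD24hi (3.37 ± 0.85, adjusted p = 0.151). The changes of FN1 and CDH2 were 3.31 and 4.68 without CD24hi a, and 1.79 and 2.05 without CD24hi b. CD44, a surface protein often paired with CD24 in sorts, had 1256 and 1980 in MSP3 against 4323 and 1762 in CD24hi (-0.81 ± 0.59, adjusted p = 0.631).

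The other widest rises were ITGBL1, NR2F1, RGS4, CADM3 and PTX3. NR2F1, an orphan nuclear receptor, had signals of 1736 and 1667 in MSP3 against 21.8 and 14.4 in CD24hi, at least 53.2-fold higher (6.58 ± 0.35, adjusted p = 0.00776). RGS4, a regulator of G protein signalling, was at least 51.0-fold higher, ITGBL1, an integrin-like secreted protein, at least 60.9-fold, and CADM3, a cell adhesion molecule of the immunoglobulin family, at least 44.0-fold. PTX3, a secreted pentraxin, had 4909 and 6342 in MSP3 against 158 and 31.4 in CD24hi, 79.4-fold higher (6.31 ± 0.75, adjusted p = 0.0212).

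What set MSP3 apart from MSP1 and MSP2 was tested directly, since comparisons of the 3 groups with CD24hi share its arrays. Of 54613 probe sets limma called 0 for MSP3 against the mean of MSP1 and MSP2, with a smallest adjusted p of 0.341, while 2321 (4.25%) had an unadjusted p under 0.05. Of the 108 epithelial genes 6 had such an unadjusted p, 4 higher and 2 lower in MSP3, and of the 97 mesenchymal genes 3 did. No epithelial gene had an adjusted p below 0.723. The letters a and b went together across these 3 groups, and with the letter as a block over their 6 arrays limma again called 0 probe sets, with 3563 (6.52%) at an unadjusted p under 0.05. In that fit 13 epithelial genes had such a p, 8 higher and 5 lower in MSP3, and the smallest adjusted p among them was 0.556. Among the 108 epithelial genes 52 were at or above 32 in MSP3, 45 in MSP1 and 52 in MSP2.

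ESRP1, with the smallest unadjusted p of these (0.00619, adjusted p = 0.723), was dim in all 3 groups, at levels of 7.43 in MSP3, 2.47 in MSP1 and 0.897 in MSP2. JUP had levels of 212 in MSP3, 104 in MSP1, 118 in MSP2 and 2035 in CD24hi (unadjusted p = 0.0466 for MSP3 against MSP1 and MSP2). DSP had 582 in MSP3, 160 in MSP1, 344 in MSP2 and 6394 in CD24hi (unadjusted p = 0.0407). For JUP both MSP3 arrays lay above all 4 arrays of MSP1 and MSP2, and for DSP each MSP3 array lay above the MSP1 and MSP2 arrays of its own letter. KRT5 had 327 in MSP3, 80.6 in MSP1 and 390 in MSP2, and KRT14 had 3779 in MSP3, 2445 in MSP1 and 3600 in MSP2. CDH1 was dim in each, at 15.5 in MSP3, 6.08 in MSP1 and 5.31 in MSP2. COL6A3 had 1410 in MSP3, 1071 in MSP1 and 349 in MSP2, and PDGFRA, a growth factor receptor of fibroblasts, 53.1 in MSP3, 74.4 in MSP1 and 383 in MSP2. None of these differences held after adjustment.

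**Figure D5:**
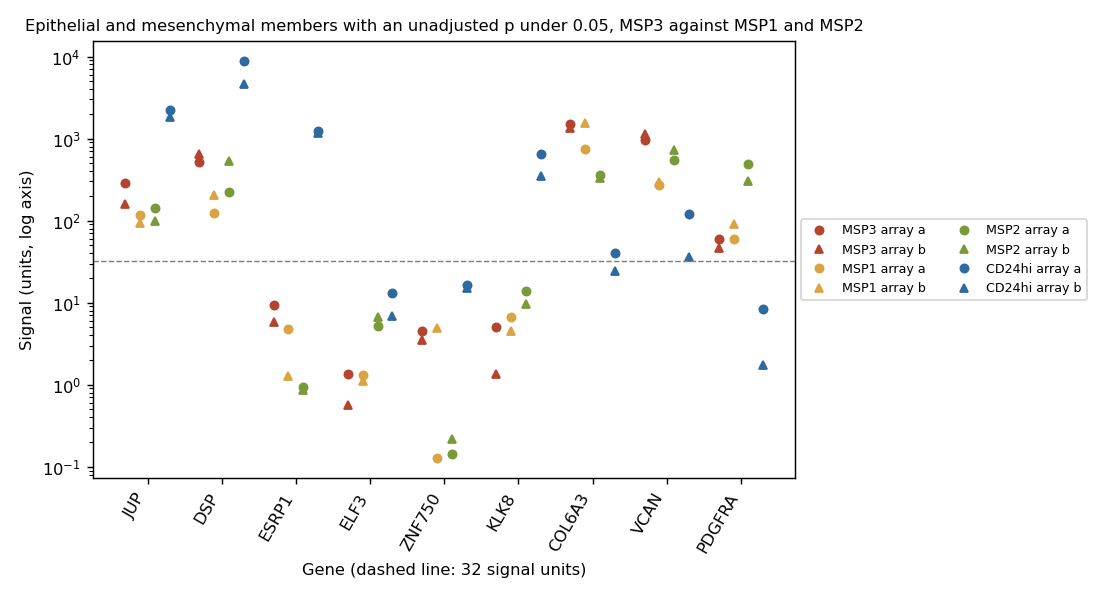
Signal (log axis) on each array of MSP3, MSP1, MSP2 and CD24hi, left to right, for the 6 epithelial and 3 mesenchymal genes with an unadjusted p under 0.05 for MSP3 against MSP1 and MSP2. The dashed line marks 32 signal units. ESRP1, ELF3, ZNF750 and KLK8 lie below it on every array of the 3 mesenchymal groups, and none of the 9 passed after adjustment.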

How the data were processed

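Per the labels' protocols, RNA was extracted with a Qiagen kit, biotin-labelled and read on Affymetrix arrays of 1 colour. The deposited values were linear probe set intensity, scaled by the authors to a common trimmed mean. The submitters' processing notes name Affymetrix Expression Console and limma, without versions, and a genome build is not given in the sources used here. In what follows, the authors' deposited table gave gene names, and its log2 fold changes and p-value column are quoted only where named. It listed 16382 probe sets, 2256 of them first and the rest in array order up to position 14644, and 14028 had 1 symbol; with synonyms updated through RefSeq this gave 8927 genes.

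The log2 signals, with no offset, entered limma (version 3.58.1, R version 4.3.3). Its model held 1 mean for each of the 4 groups on 8 arrays (4 residual and 2.08 prior degrees of freedom), with eBayes and Benjamini-Hochberg adjustment over 54613 probe sets; 62 controls were left out. Tests are two-sided, and precision is limited by having only 2 arrays in a group. The fit was also run on simulated data whose spread was unrelated to signal level. On the arrays spread was widest at dim signals, so that run does not speak for them. Members and the 32 gene lists (554 genes, 401 measured) were chosen with earlier results of these data known. Genes were named by a rule: 9 markers, the 12 widest rises and falls with levels under 32 set to 32, and from each list the 3 widest called falls and rises, the 3 brightest kept members or the brightest one. Values of further list members were added after they were seen, and some genes are not reported here. Alternatives changed scaling, floor, offset, dim filter, prior variance, probe set choice, block and arrays.

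Letters a and b share names across groups. The log2 a minus b differences of MSP3 and CD24hi correlated at -0.303, so letters were not taken as pairs there. Among MSP3, MSP1 and MSP2 they correlated at 0.624 to 0.777, so MSP3 was also set against MSP1 and MSP2 with the letter as a block, a fit added after seeing the data.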

Additional observations from a re-analysis of the deposited data

How the results depend on the processing

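Of 80 named genes called, 80 stayed called under quantile normalization, an intensity trend, log2(signal + 16) and the filter on dim probe sets. Calls lost were 2 (common median), 23 (floor of 32), 21 (mean of a gene's probe sets), 18 (replicate block), 12 (crossed block), 28 to 35 (without 1 CD24hi, MSP1 or MSP2 array) and 80 (without 1 MSP3 array, or with only the 4 arrays of MSP3 and CD24hi). The array-order and gapless namings lost calls too. Counts are given as probe sets lower and higher, then epithelial genes lower and kept, then mesenchymal genes higher, against 430, 430, 50, 1 and 25. They were 883, 1115, 75, 4 and 38 with the trend, 1126, 1119, 76, 7 and 35 with log2(signal + 16), and 1063, 1261, 75, 4 and 39 with the dim filter. The 4 arrays alone gave 0 throughout. Kept genes were 4 with the floor of 32 and 0 with quantile normalization or the mean of probe sets; MSP3 against MSP1 and MSP2 gave 4 calls with that floor.

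Without each array in turn the counts ran from 0 to 215, 0 to 445, 0 to 37, 0 to 1 and 0 to 29. Without either MSP3 array all were 0, and the kept count was 0 also without CD24hi b or any MSP1 or MSP2 array. Naming by array-order rows alone, which leaves out the authors' called probe sets, gave 2 of 35 epithelial genes lower and 0 of 68 mesenchymal genes higher. The gapless stretch, chosen after seeing the data and with each gene's brightest probe set taken within it, gave 22 of 59 and 12 of 81. With the letter as a replicate block over all 8 arrays the counts were 262, 330, 42, 1 and 20; with CD24hi letters crossed, also chosen after seeing the data, 430, 480, 44, 3 and 26.

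Signs turned for LAMA3 (0.48) and LTBP1 (-1.85) in array-order rows and for ITGB1 (-0.13) with the mean of probe sets. Without single arrays they turned for genes near 0. The changes ran from -0.31 to 0.27 for SMAD7, -0.36 to 0.26 for B2M, -0.28 to 0.05 for SREBF2, -0.31 to 0.21 for LDHA, -0.79 to 0.55 for TUBB3, -0.05 to 0.19 for PCNA, -0.10 to 0.30 for MCM6, -0.29 to 0.07 for KRT7 and -0.10 to 0.71 for CD68. The causes were not tested.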

Other observations

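Genes of several signalling pathways differed in MSP3 against CD24hi, beside 2.62% of named genes lower and 2.05% higher. Most of these counts shrank without single CD24hi arrays. Of 18 TGF-beta and BMP pathway genes 2 fell and 3 rose, and without CD24hi b 1 fell and 0 rose. FST, follistatin, had signals of 72.7 and 83.3 in MSP3 against 8179 and 1796 in CD24hi, 49.2-fold lower (limma, change -5.62 ± 0.73, adjusted p = 0.0264), and INHBA, a subunit of the activin that follistatin binds, was 24.3-fold lower. LTBP1, which holds latent TGF-beta in the matrix, was 30.4-fold higher, TGFBR3, betaglycan, at least 7.90-fold and ID2 at least 2.81-fold. SMAD7, an inhibitor of the pathway, was kept, with a change of -0.02. Of 17 Wnt pathway genes 3 fell (1 without either CD24hi array), SFRP1, RNF43 and FZD3, and AXIN2, a feedback target, rose at least 2.86-fold. IL1A, an alarmin cytokine, had 1.86 and 1.82 in MSP3 against 650 and 1192 in CD24hi, at least 27.5-fold lower (adjusted p = 0.00776). IL1B was at least 13.9-fold lower, and TSLP, a cytokine of barrier epithelium, was at least 14-fold higher. MMP9 fell 16.8-fold and MMP28 at least 9.10-fold. IFI44L, an interferon-induced gene, had 774 and 189 in MSP3 against 0.98 and 1.74 in CD24hi, at least 12-fold higher, while OAS1 fell and B2M was kept. Neither interferon-induced gene was called without CD24hi a or without CD24hi b. Of 21 growth factor genes of mesenchyme 5 rose (3 without CD24hi a, 2 without CD24hi b), led by PDGFRL at least 11.6-fold higher.

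Of 17 replication and mitosis genes 1 fell, and of 15 hypoxia and glycolysis genes 2 fell, while 0 rose in either list, and without CD24hi b 0 and 1 fell. MCM2, MCM6 and PCNA in the first and LDHA, ENO1 and ALDOA in the second were kept, with changes from -0.13 to 0.11. CCND2, cyclin D2, fell 21.2-fold, to 128 and 79.9 in MSP3 against 1258 and 3646 in CD24hi, though its 5 probe sets ran from -4.40 to 0.33. NDRG1, a stress-induced gene, had 222 and 220 in MSP3 against 2837 and 6355 in CD24hi, 19.2-fold lower (adjusted p = 0.0161), and CA9 was at least 4.58-fold lower. Of 13 integrins 0 were called in either direction, beside 2.62% of named genes lower and 2.05% higher, which does not show them unchanged. Both MSP3 arrays lay below both CD24hi arrays for 5 of the 13 and above them for 3, against 25% and 22% of named genes. ITGB6 had 100 and 83.3 in MSP3 against 6362 and 1262 in CD24hi and just missed the threshold (-4.95 ± 0.81, adjusted p = 0.0504). FABP4, a fatty acid carrier, had 73.7 and 75.1 in MSP3, 10.3 and 15.7 in MSP1, 1.86 and 16.9 in MSP2, and 27.2 and 19.9 in CD24hi. With signals under 32 set to 32, limma called 4 probe sets for MSP3 against MSP1 and MSP2. They were FABP4 (adjusted p = 0.000559), KIAA1345, ZBTB1 and 1 with no name here, chosen after their values were seen, and arrays at that floor have no spread of their own.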
